A study of Mus musculus with 12 samples.

Results

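The response of bone-marrow-derived dendritic cells labelled as knockouts (KO) of the Vav genes to curdlan was described from 6 of the 12 RNA libraries of the study. These were the 3 libraries labelled KO with curdlan, numbered 2, 4 and 5, and the 3 labelled KO without it, numbered 1, 2 and 5. The comparison took in all genes with enough counts to test, 18981 of the 37991 counted. Cells labelled KO were of the C57BL/6 strain and of genotype Vav1/2/3-/-. The stimulated ones had received curdlan for 3 hours, at 200 mg/ml as the labels give it, a unit that could not be checked, and the others were left unstimulated. The other 6 libraries came from wild-type (WT) C57BL/6 cells, 3 with the same curdlan treatment (1, 2 and 4) and 3 unstimulated (1, 2 and 4). They are used below to set some of the KO values beside WT ones. A KO value given alone was not compared with WT in the text and is not thereby particular to KO. Marrow cultures can hold cells other than dendritic cells, and the labels name no sort. Nothing in the labels says whether libraries of a group came from separate animals or cultures, so the p-values measure the spread between these libraries, which may be technical.

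Curdlan is a particulate beta-glucan, a polymer of the kind found in fungal cell walls, and it is bound by Dectin-1, a C-type lectin receptor encoded by Clec7a. Ligand binding brings the kinase Syk to the receptor, and Syk signals through phospholipase C, protein kinase C delta and the adapter Card9 with Bcl10 and Malt1 to NF-kB, and in parallel through MAP kinases and through calcium and calcineurin to NFAT. Vav proteins are phosphorylated below such receptors and act there as signalling proteins and adapters. In dendritic cells the pathway is known for the induction of cytokines, chemokines and costimulatory molecules.

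Transcripts of the targeted genes were still counted in every library labelled KO. Over these 6 libraries Vav1 lay at 198 to 330 CPM, the usual unit of counts relative to the scaled library total. The ranges were 265 to 325 CPM for Vav2 and 22.7 to 40.0 CPM for Vav3. Whether their levels differed between KO and WT within a state was not tested. Whole-gene counts cannot show whether an exon is deleted. The groups are therefore called by their labels, and every direction between genotypes rests on those labels. The 6 libraries held 41421718 to 54863680 counts each. Each of the 4 groups was read in a sequencing lane of its own, 6 for unstimulated KO and 8 for curdlan KO, so the curdlan state and the lane cannot be told apart. Scaling factors from the trimmed mean of M-values (TMM) were 0.986 to 1.003 in the unstimulated and 0.863 to 0.871 in the curdlan libraries. Along the first principal component of the 6 libraries, with 51.9% of the variance, the curdlan libraries lay at 24.45 to 41.24 and the unstimulated ones at -39.64 to -29.87. The second, with 23.7%, set the libraries numbered 5 apart, at -32.35 and -30.44 against 1.21 to 25.09 for the other 4. Of 15 neutrophil markers 13 were highest in the library numbered 5 in both states, against 19.5% of all genes. Mitochondrial transcripts took 2.83% to 3.26% of counts without curdlan, and 3.08%, 5.81% and 4.08% in curdlan libraries 2, 4 and 5.

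Curdlan changed 5425 genes in the libraries labelled KO, 2658 higher and 2767 lower, by the quasi-likelihood test of edgeR at a Benjamini-Hochberg adjusted p under 0.05. This is 28.6% of the genes tested, with 14% higher and 14.6% lower. These shares are the background for the KO counts of each list below. Among protein-coding genes alone 14.6% were higher and 18.3% lower. A log2 fold change is curdlan minus unstimulated, its ± is a standard error, and its median over all genes was -0.00084. Scaled by library size alone, that median moved to -0.20 and 17.9% of 7399 calls were higher, against 49% in the first fit, so directions here are relative to the typical gene under TMM. The rises were the larger changes. At least 2-fold changes numbered 605 rises and 250 falls, at least 4-fold ones 138 rises and 8 falls, and at least 8-fold ones 41 rises and 1 fall. The 3 curdlan and 3 unstimulated values did not overlap for 7237 genes, 38.1% of those tested, and for 5077 of the genes called. Without unstimulated library 1 the number of calls was 3490, without curdlan library 2 it was 6074, and without both libraries numbered 5 it was 4055. A fit of the 6 libraries alone called 3142. The main fit shares its estimate of spread with WT, where libraries of a group lay closer together. Chi-square per degree of freedom between pairs of libraries was 62.9 to 77.1 in curdlan KO and 25.4 to 54.0 in unstimulated KO. In WT it was 10.0 to 24.0 with curdlan and 9.15 to 21.5 without.

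In WT the same test, with no pairing of libraries, called 3759 genes, 19.8% of those tested, with 2164 higher and 1595 lower. In both genotypes 2106 genes were called, which is 38.8% of the KO and 56% of the WT calls. Of those shared genes, 1997 moved in the same direction and 109 in opposite ones. The difference between the responses, KO minus WT, was tested directly and passed for 989 genes, 5.21% of those tested. Of these 305 were positive and 684 negative. These WT and difference numbers by direction, out of 18981 genes, are the background for WT and difference counts of lists below. Of the 605 KO rises of at least 2-fold, 407 also rose in WT, while for the 250 falls the number also falling in WT was 84. The median log2 fold change of those rises was 1.41 in KO and 1.13 in WT, and that of the falls -1.21 and -0.47. Since they were picked by their KO values, the KO medians are a description. The number of differences rested heavily on single libraries. It ran from 366 without WT curdlan 2 to 2837 without KO curdlan 2. The order of the genotypes by number of calls depended on the fit. Fitted alone, the 6 WT libraries gave 5198 calls and the 6 KO libraries 3142. With library number as a replicate block the calls were 7276 in WT, 5625 in KO and 2671 for the difference. Sample titles number the KO libraries 1 to 3 in both states, unlike the library names, and a block by those numbers gave 6551, 7861 and 4487. No ranking of the genotypes by number of changed genes is drawn from these counts.

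The largest rises held growth factors, vascular mediators and signalling brakes beside cytokines and immediate-early factors. Per-library CPM below are given in the order 1, 2 and 5 without curdlan, and 2, 4 and 5 with it. Edn1 (ENSMUSG00000021367, chr13:42301476-42307990, plus strand), which encodes the vasoconstrictor peptide endothelin-1, measured 3.62, 2.98 and 4.65 CPM in the unstimulated and 254, 177 and 281 CPM in the curdlan libraries. Areg (ENSMUSG00000029378, chr5:91139599-91148432, plus strand), the EGF-family ligand amphiregulin, measured 0.517, 1.47 and 1.48 CPM and then 35.1, 24.2 and 57 CPM. Both genes were low in every unstimulated library and far above that in every curdlan library, with curdlan library 5 the highest. Rcan1 (ENSMUSG00000022951, chr16:92391953-92470867, minus strand), a calcineurin inhibitor and NFAT target, measured 12.9, 11.9 and 13.6 CPM without and 168, 153 and 318 CPM with curdlan. F3 (ENSMUSG00000028128, chr3:121723537-121735048, plus strand), tissue factor, which starts clotting, measured 12.3, 8.02 and 20.6 CPM and 152, 127 and 283 CPM. In both, the 3 curdlan values lay well above the 3 unstimulated ones, and library 5 gave the highest value in each state. The log2 fold changes were 5.97 ± 0.29 for Edn1, 5.07 ± 0.39 for Areg, 4.06 ± 0.24 for Rcan1 and 3.77 ± 0.34 for F3, with adjusted p of 1.66e-07, 5.07e-06, 1.01e-06 and 1.56e-05 (edgeR, Benjamini-Hochberg). Tnfsf18 (ENSMUSG00000066755, chr1:161494655-161505290, plus strand), the ligand of the costimulatory receptor GITR, went from 0.258, 0.53 and 0.238 CPM to 6.79, 3.35 and 4.81 CPM. Cyr61 (ENSMUSG00000028195, chr3:145646976-145649981, minus strand), a matrix-associated secreted protein, went from 0.596, 0.337 and 0.348 CPM to 4.56, 4.45 and 7.28 CPM. Rgs16 (ENSMUSG00000026475, chr1:153740349-153745468, plus strand), which shortens G-protein signalling, went from 1.49, 1.56 and 1.61 CPM to 16.4, 14.8 and 27 CPM. These 3 rose by 3.91, 3.65 and 3.64 in log2 fold change, with no overlap between the states. Of the 15 largest rises 11 were highest in curdlan library 5, and 9 in the library numbered 5 in both states, against 33.5% and 19.5% of all genes.

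**Figure D1:**
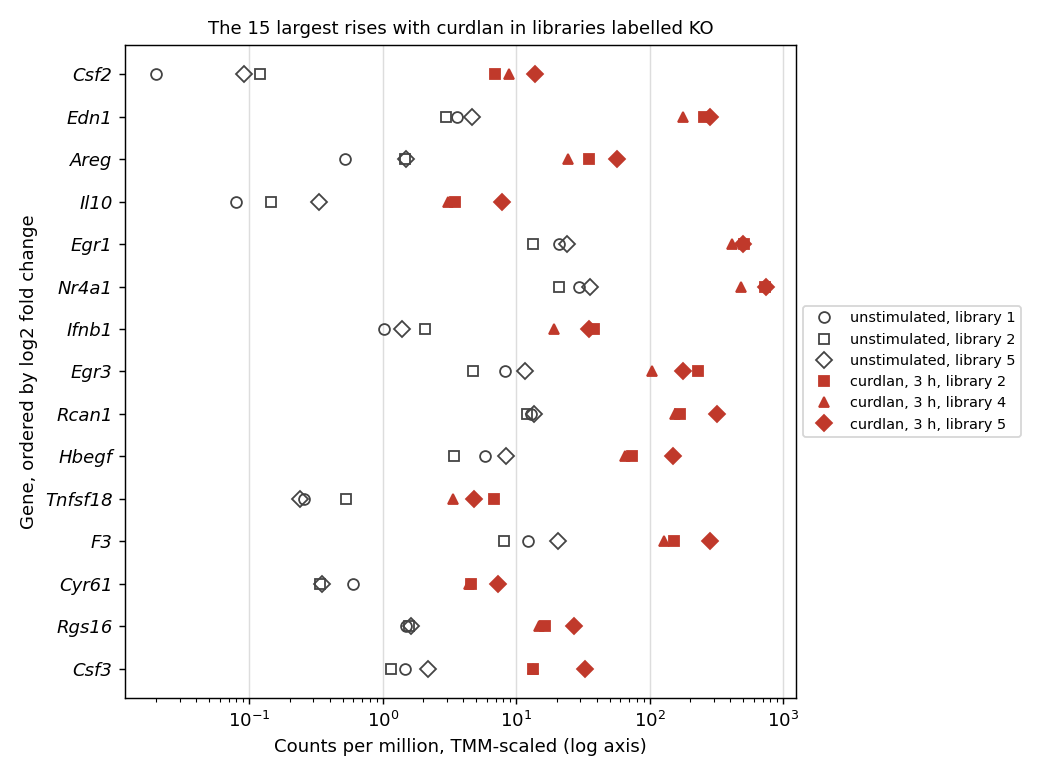
CPM on a log axis in each library labelled KO for the 15 genes with the largest rises by the naming rule. Grey open symbols are the 3 unstimulated and red symbols the 3 curdlan libraries, and the symbol shape gives the library number (circle 1, square 2, triangle 4, diamond 5). The states do not overlap for any gene plotted, and the diamonds of library 5 are often the rightmost.

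Promoter sequences are shown for 3 of these genes because their windows hold short motifs known from stimulus-induced genes. The sequences are those of RefSeq on GRCm38.p6, in gene orientation 5′ to 3′, from 250 bases before to 50 after the start. Capitals mark a CRE (TGACGTCA), an AP-1 site (TGANTCA) or an NF-kB core (GGANTTTCC) found on either strand. For Areg, at chr5:91139349-91139648 on the plus strand, the match is a CRE. Rcan1 is shown for the second of 2 starts listed, at chr16:92400029-92400328 on the minus strand, with a CRE and an AP-1 match. The F3 window, at chr3:121723287-121723586 on the plus strand, holds a pair of AP-1 matches and an NF-kB core.
Areg: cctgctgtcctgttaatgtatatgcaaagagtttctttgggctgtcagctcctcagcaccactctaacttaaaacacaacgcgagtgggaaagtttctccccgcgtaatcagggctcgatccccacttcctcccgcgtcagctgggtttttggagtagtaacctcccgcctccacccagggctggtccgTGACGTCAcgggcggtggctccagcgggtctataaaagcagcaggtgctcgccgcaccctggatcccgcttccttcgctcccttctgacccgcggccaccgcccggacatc
Rcan1: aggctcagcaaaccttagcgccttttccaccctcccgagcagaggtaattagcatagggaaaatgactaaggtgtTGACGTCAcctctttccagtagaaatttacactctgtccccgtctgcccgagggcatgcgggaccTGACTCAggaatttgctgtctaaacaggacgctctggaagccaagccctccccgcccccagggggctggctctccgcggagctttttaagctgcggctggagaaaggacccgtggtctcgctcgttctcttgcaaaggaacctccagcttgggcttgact
F3: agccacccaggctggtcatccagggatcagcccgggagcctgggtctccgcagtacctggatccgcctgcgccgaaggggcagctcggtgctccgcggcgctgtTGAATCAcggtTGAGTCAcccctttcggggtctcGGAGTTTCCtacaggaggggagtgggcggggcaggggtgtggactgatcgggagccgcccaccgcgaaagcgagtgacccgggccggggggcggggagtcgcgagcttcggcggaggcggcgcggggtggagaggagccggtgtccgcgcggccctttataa
Windows were found for 9 of the 15 largest rises, of which 2 (22.2%) held a CRE, 2 an AP-1 match and 2 an NF-kB core. Of all 27025 genes with a window, 2.03% held a CRE in any window, 8.97% an AP-1 match and 1.45% an NF-kB core. A match is a description of the letters and not a measured binding site.

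Among 25 growth factor, vascular and clotting genes, 14 rose and 1 fell, with a median log2 fold change of 0.80. Beside Edn1, Areg and F3 they included the EGF-family ligands Hbegf (4.02) and Ereg (3.10). Both chains of platelet-derived growth factor rose. Pdgfa measured 18.9, 19.1 and 25.4 CPM without and 71.9, 85.8 and 93.1 CPM with curdlan, and Pdgfb 25.8, 24.7 and 32.7 CPM and 84.5, 98.6 and 98.7 CPM. The values sat close together within each state, and the log2 fold changes were 1.98 ± 0.14 (adjusted p = 2.81e-06) and 1.76 ± 0.13 (adjusted p = 3.1e-06) by edgeR. Inhba, a subunit of activin, rose by 1.79, from 122, 60.1 and 95.6 CPM to 390.4, 176 and 396 CPM, and Nrg1, another EGF-family ligand, by 1.12. Plaur, the receptor of the protease urokinase, rose by 1.02. The fall was Adm (ENSMUSG00000030790, chr7:110627661-110629820, plus strand), which encodes the vasodilator peptide adrenomedullin. It measured 13.3, 8.16 and 9.1 CPM without and 4.65, 5.12 and 3.9 CPM with curdlan (log2 fold change -1.17 ± 0.19, adjusted p = 0.000977), with every curdlan value below every unstimulated one. In 17 of the 25 genes curdlan library 5 was the highest. Windows were found for 9 of the 14 that rose, and 4 of those (44.4%) held an AP-1 match.

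Immediate-early transcription factor genes, which respond within minutes to hours of a stimulus without new protein synthesis, rose in 25 of 28 cases, with none falling and a median of 1.16. In the NR4A family of orphan nuclear receptors all 3 members rose. Nr4a1 measured 29.4, 20.9 and 35.5 CPM without and 724, 479 and 737 CPM with curdlan, Nr4a2 5.13, 3.71 and 5.05 CPM and 50.3, 31.2 and 61.9 CPM, and Nr4a3 238, 274 and 254 CPM and 1508, 950.1 and 1486 CPM. Each showed a wide gap between the states and its lowest curdlan value in library 4. The log2 fold changes were 4.50 ± 0.21, 3.36 ± 0.22 and 2.37 ± 0.16 (adjusted p = 1.26e-07, 1.73e-06 and 2e-06, edgeR). Egr3, a zinc-finger factor of the same wave, measured 8.23, 4.77 and 11.6 CPM and 228, 104 and 178 CPM. Its relative Egr4 was almost silent without curdlan, with 2 counts over the 3 libraries, and held 106 counts with it, a ratio of 65.2 (95% counting interval 17.6 to 546). Of the AP-1 genes, Fosb rose by 1.88, Fos by 1.53, Fosl2 by 0.87 and Junb by 0.80, while Jun stood at 0.17 (adjusted p = 0.433). The small MAF factors Mafk and Maff rose by 1.21 and 1.12, and the stress-induced repressor Atf3 by 1.20. Klf2, Klf4 and Jun were the 3 members that did not pass. With one library left out in turn, 23 to 24 members rose.

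Genes that damp MAP kinase and G-protein signalling rose in 14 of 19 cases, with none falling and a median of 1.09. The dual-specificity phosphatase Dusp2 measured 10.5, 14.3 and 12.4 CPM without and 106, 83.5 and 104 CPM with curdlan (log2 fold change 2.98 ± 0.16, adjusted p = 4.5e-07). Dusp5 measured 41.4, 39.8 and 51.3 CPM and 222, 179 and 305 CPM (log2 fold change 2.41 ± 0.17, adjusted p = 3.07e-06). Curdlan values of both were at least 3-fold above the highest unstimulated value. Dusp14, Dusp1 and Dusp4 rose by 2.59, 1.85 and 1.29, and the receptor tyrosine kinase inhibitors Spry2 and Spry1 by 1.37 and 1.09. Among regulators of G-protein signalling, Rgs1 rose by 2.64 and Rgs2 by 1.21. Dusp6, a phosphatase of ERK, measured 46.9, 39.8 and 52.4 CPM and 55.3, 47.8 and 93.4 CPM, overlapped between the states and did not pass (adjusted p = 0.092).

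Inflammatory cytokine genes rose in 20 of 25 cases, 1 fell, and the median was 1.61. Csf1, the growth factor of macrophages, measured 199, 137 and 292 CPM without and 1208, 1119 and 1893 CPM with curdlan (log2 fold change 2.75 ± 0.25, adjusted p = 1.85e-05). Il1rn, which encodes the antagonist of the IL-1 receptor, measured 483, 390.3 and 739 CPM and 3005, 2383 and 4574 CPM (log2 fold change 2.63 ± 0.26, adjusted p = 2.67e-05). Both were highest in the library numbered 5 in each state, and their states were far apart. Osm, the gp130 cytokine oncostatin M, was nearly equal over unstimulated libraries, at 45.2, 45.6 and 45 CPM, and measured 213, 174 and 277 CPM with curdlan (log2 fold change 2.29 ± 0.14, adjusted p = 1.01e-06). The interferon beta gene Ifnb1 (ENSMUSG00000048806, chr4:88522025-88522774, minus strand) went from 213 to 3745 counts over 3 libraries, a ratio of 21.6 (95% counting interval 18.8 to 25.0). In CPM it measured 1.01, 2.07 and 1.39 and then 38.3, 19.2 and 34.9, with the lowest curdlan value in library 4. Il10 (ENSMUSG00000016529, chr1:131019845-131024974, plus strand), an anti-inflammatory cytokine gene, went from 28 to 560 counts, a ratio of 24.6 (16.8 to 37.4), and Csf2, which encodes GM-CSF, from 11 to 1149. These intervals cover counting error only. Il27, Lta and Il2 rose by 1.49, 1.61 and 1.57, and Tgfb1 by 0.51. Il1a measured 267, 122 and 521 CPM and 949, 801 and 2428 CPM. It rose by 2.20, with a spread within each state of several fold and library 5 the highest in both. The member that fell was Il16, a chemoattractant cytokine, at 27.9, 26.6 and 35.7 CPM and 19.8, 17.7 and 24.9 CPM (log2 fold change -0.53 ± 0.13, adjusted p = 0.011), a call lost in a fit of the 6 libraries alone (adjusted p = 0.0548). Il12a, Il15, Ebi3 and Ltb did not pass, at 0.53, -0.12, 0.19 and 0.24. In 17 of the 25 genes curdlan library 5 was the highest.

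Interferon-stimulated genes had the largest share of rises among the 27 lists, with 33 of 35 tested members higher, none lower and a median of 1.08. With any 1 library left out, 30 to 32 rose. Ifit1 (ENSMUSG00000034459, chr19:34640871-34650009, plus strand), whose protein binds foreign RNA, measured 201, 249 and 136 CPM without and 998, 859 and 778 CPM with curdlan (log2 fold change 2.17 ± 0.34, adjusted p = 0.00059). Ifit3 (ENSMUSG00000074896, chr19:34583531-34588731, plus strand), of the same cluster, measured 36.8, 47.6 and 27.8 CPM and 176, 144 and 158 CPM (log2 fold change 2.09 ± 0.34, adjusted p = 0.000851). In both genes unstimulated library 5 was the lowest of all and the states were clearly separate. Cmpk2, a mitochondrial nucleotide kinase, gave nearly equal curdlan values of 628, 625 and 618 CPM after 94.9, 115 and 85.2 CPM. Mx2 and Mx1, antiviral GTPases, measured 266, 291 and 278 CPM and 1458, 1290 and 1241 CPM with curdlan, after 42.9, 56.3 and 37 CPM and 339.9, 397 and 252 CPM without it. Each of these 3 genes had its lowest value in unstimulated library 5. Their log2 fold changes were 2.67 ± 0.35, 2.62 ± 0.29 and 2.01 ± 0.23. The RNA sensor Ifih1 rose by 1.71, the ubiquitin-like modifier Isg15 by 1.74, and the transcription factors Irf7, Stat2 and Irf9 by 1.31, 1.08 and 0.72. With curdlan, 14 of 35 members (40%, against 33.5% of all genes) were highest in library 5, and 14 in library 2. Without it, 1 of 35 was highest in library 5 and 22 in library 2, against 6865 and 6206 of all 18981 genes. No member was highest in the library numbered 5 in both states (0 of 35, against 19.5% of all genes).

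The promoter windows of the 2 Ifit genes are shown because each holds 3 copies of the interferon-response core GAAANNGAA. Capitals mark these cores and, in Ifit3, an AP-1 match nearer to the start. Both lie on the plus strand of GRCm38.p6, Ifit1 at chr19:34640639-34640938 and Ifit3 at chr19:34583279-34583578, from RefSeq.
Ifit1: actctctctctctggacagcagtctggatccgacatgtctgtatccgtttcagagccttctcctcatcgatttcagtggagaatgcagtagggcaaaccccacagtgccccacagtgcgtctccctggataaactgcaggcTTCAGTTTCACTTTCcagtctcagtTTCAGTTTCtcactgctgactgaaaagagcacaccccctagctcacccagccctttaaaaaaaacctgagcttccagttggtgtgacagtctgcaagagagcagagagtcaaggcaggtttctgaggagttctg
Ifit3: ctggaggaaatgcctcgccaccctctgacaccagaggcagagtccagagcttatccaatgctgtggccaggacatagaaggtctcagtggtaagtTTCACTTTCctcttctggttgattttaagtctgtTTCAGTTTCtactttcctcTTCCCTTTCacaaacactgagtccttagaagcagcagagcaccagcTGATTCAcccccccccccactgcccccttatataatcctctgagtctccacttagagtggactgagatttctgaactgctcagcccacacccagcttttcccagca
Of the 33 members that rose, 24 had a window, and 12 of these (50%) held the core, against 9.76% of all genes with a window. Among the 9 chemokine genes that rose and had a window, 3 (33.3%) held the core, 3 an NF-kB core and 3 an AP-1 match.

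Chemokine genes rose in 14 of 22 cases, with none lower and a median of 1.40. Genes for monocyte-attracting CC chemokines, which lie together on chromosome 11, were among them. Ccl7 (ENSMUSG00000035373, chr11:82045712-82047525, plus strand) measured 75, 74.4 and 93.8 CPM without and 675, 767 and 926 CPM with curdlan (log2 fold change 3.28 ± 0.14, adjusted p = 1.26e-07). Ccl2 measured 142, 129 and 182 CPM and 889, 879 and 1237 CPM, and Ccl12 14.7, 21.1 and 18.7 CPM and 82, 77.9 and 82.7 CPM. In all 3 the states lay at least 3-fold apart. The log2 fold changes of Ccl2 and Ccl12 were 2.73 ± 0.22 and 2.15 ± 0.21. Ligands of Cxcr3, the receptor of activated T cells, rose as well, Cxcl9 by 2.50, Cxcl10 by 2.23 and Cxcl11 by 2.53. Their per-library order was unlike that of the neutrophil chemokine genes. Cxcl9, at 8.2, 6.11 and 4.27 CPM with curdlan after 0.835, 1.95 and 0.604 CPM, was lowest in library 5 in both states, while Cxcl2, at 2969, 2900 and 4945 CPM after 745, 505 and 1030 CPM, was highest there in both. Cxcl3 and Cxcl5, of the neutrophil group too, overlapped between states and did not pass, at 0.89 and 0.70. Smaller rises were seen for the T-cell-attracting Ccl22 (0.58) and for Ccl9 (0.83).

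Of 25 receptors for chemoattractants, adenosine and purines, 7 rose and 4 fell, with a median of 0.02. Ccrl2, which binds chemerin and presents it to other cells, rose by 1.21, from 222, 188 and 234 CPM to 600.0, 374 and 510.5 CPM. Receptors of chemokines and complement that rose were Ccr1 (1.02), Ccr3 (1.09) and C5ar1 (1.06). Those that fell included Cxcr2 (-0.97), at 42.2, 42.1 and 44.5 CPM and 22.2, 18.1 and 25.4 CPM, and the marrow-retention receptor Cxcr4 (-0.73), at 135, 139.5 and 119 CPM and 83, 78.3 and 75.9 CPM. In both, the curdlan values lay below all unstimulated ones. By library size alone 4 rose and 8 fell. Ccr3 is also an eosinophil marker. Of 7 such markers 2 rose and 1 fell, and 6 (85.7%, against 33.5% of all genes) were highest in curdlan library 5. The part of eosinophils in the rise of Ccr3 was not tested. Cxcr2 is also a neutrophil marker. Of 15 neutrophil markers 4 fell and none rose, with summed levels of 8355 to 12430 CPM without and 6962 to 11150 CPM with curdlan, and their part in the result was not tested. In bulk RNA, fewer cells of a type and less RNA per cell cannot be told apart.

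NF-kB genes and their feedback inhibitors rose in 16 of 30 cases and fell in 4, with a median of 0.31. Nfkbid, an atypical nuclear IkB protein, gave the largest rise. It was level over unstimulated libraries at 86.7, 90.5 and 89 CPM and measured 696, 515 and 686 CPM with curdlan (log2 fold change 2.83 ± 0.14, adjusted p = 1.66e-07). Nfkbiz, another nuclear IkB, rose by 1.02, the A20-binding protein gene Tnip3 by 0.96, and the subunits Nfkb1 and Nfkb2 by 0.57 and 0.53. Tnfaip3 (ENSMUSG00000019850, chr10:19000910-19015657, minus strand), which encodes the deubiquitinase A20, measured 614, 654 and 674 CPM and 1179, 1073 and 1047 CPM (log2 fold change 0.77 ± 0.09, adjusted p = 7.79e-05). Members that fell were Tnip1, another A20-binding protein, Ikbkg, Cyld and Bcl3. The last 3, at -0.26, -0.26 and -0.18, lost their calls under at least 1 alternative, with adjusted p of up to 0.0588, 0.0662 and 0.173 (edgeR). Tnip1 measured 417, 376 and 386 CPM without and 313, 273 and 268 CPM with curdlan (log2 fold change -0.47 ± 0.10, adjusted p = 0.00571). Its values did not overlap, and in WT the gene rose by 0.59. The number that fell was 2 without curdlan library 4 or without unstimulated library 1, and by library size alone 10 rose and 8 fell. Birc3, Icam1 and Sod2, known NF-kB targets, did not pass in KO, at -0.11, -0.07 and 0.08. The direct difference from WT was negative past the threshold for 10 of the 30 genes and positive for none.

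The Tnfaip3 window is shown for its NF-kB core and AP-1 match, in capitals. It is the first of 2 starts listed by RefSeq, at chr10:19015361-19015660 on the minus strand of GRCm38.p6.
Tnfaip3: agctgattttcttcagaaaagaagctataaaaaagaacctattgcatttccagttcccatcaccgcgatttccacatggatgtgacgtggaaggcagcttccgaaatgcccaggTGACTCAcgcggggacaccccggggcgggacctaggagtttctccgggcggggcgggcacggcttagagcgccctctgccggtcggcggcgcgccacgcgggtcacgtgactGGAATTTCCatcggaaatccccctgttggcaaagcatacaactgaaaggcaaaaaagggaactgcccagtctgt
Of the 16 NF-kB genes that rose, 13 had a window and 3 (23.1%) held an NF-kB core. Among the cytokine genes that rose, 15 had a window, and an NF-kB core was found in 3 (20%) and an AP-1 match in 4 (26.7%).

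Toll-like receptor and adapter genes were split, with 4 of 23 higher, 6 lower and a median of -0.16. Tlr3, the endosomal sensor of double-stranded RNA, rose by 1.35, from 8.11, 6.79 and 4.49 CPM to 16.5, 13.9 and 18.9 CPM. The coreceptor Cd14 rose by 1.27 and the adapter Myd88 by 0.69. Ticam2 (ENSMUSG00000056130, chr18:46557291-46574533, minus strand), which bridges the receptor TLR4 to interferon signalling, fell, at 76.6, 61.8 and 74.7 CPM without and 44.3, 46.7 and 38.9 CPM with curdlan (log2 fold change -0.71 ± 0.10, adjusted p = 0.000284). Tlr6, a partner of TLR2, measured 25.3, 22.9 and 26.1 CPM and 17.3, 17.9 and 14.1 CPM (log2 fold change -0.59 ± 0.10, adjusted p = 0.000919). In both genes all curdlan values were below all unstimulated ones. By library size alone 12 members were lower. In WT 9 of the 23 rose and none fell, and the direct difference was negative past the threshold for 6.

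Genes of the C-type lectin receptor pathway changed little in size, with 11 of 37 higher, 7 lower and a median of 0.05. At the receptor, Clec7a measured 565, 658 and 532 CPM without and 1039, 793 and 949 CPM with curdlan (log2 fold change 0.66 ± 0.12, adjusted p = 0.00124). The related fungal receptors Clec4n (Dectin-2) and Clec4d rose by 0.49 and 0.61. Among signal transducers, Bcl10 measured 97, 109 and 116 CPM and 158, 168 and 183 CPM (log2 fold change 0.66 ± 0.08, adjusted p = 0.000141), with separate states, and Malt1 rose by 0.53. Syk, at -0.03, and Card9, at -0.11, did not pass. Card9 measured 45.6, 45.7 and 45.8 CPM and 39, 46.9 and 41.4 CPM, so that the states overlapped. Kinases that fell included Mapk14, which encodes p38 alpha (131, 109 and 142 CPM and 68.7, 59.1 and 83.1 CPM, log2 fold change -0.86 ± 0.13, adjusted p = 0.000418) and Pik3cd, a phosphoinositide 3-kinase (-0.54). Cbl, a ubiquitin ligase that ends receptor signalling, measured 122, 83.5 and 95.6 CPM and 73, 37.4 and 45.4 CPM. It had no overlap between the states but did not pass (adjusted p = 0.0503, edgeR). Under the alternatives it passed in 8 of 15, with an adjusted p of up to 0.17 in the others. With unstimulated library 1 left out 7 rose and 4 fell, and by library size alone 5 rose and 14 fell.

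Of 17 calcineurin and NFAT genes 3 rose and 5 fell, with a median of -0.19, so Rcan1 stood apart from most of its list. Nfatc1, an NFAT factor that is itself an NFAT target, measured 64.2, 59 and 58.1 CPM without and 166, 109 and 179.7 CPM with curdlan (log2 fold change 1.33 ± 0.16, adjusted p = 9.58e-05). Nfat5 rose by 0.59. Nfatc2 and Nfatc3 fell by 0.85 and 0.46 on the log2 scale, with Nfatc2 at 32.2, 34.4 and 25.3 CPM and 20.0, 15.7 and 15.1 CPM. The calcineurin catalytic genes Ppp3ca and Ppp3cc did not pass, at -0.01 and -0.19. By library size alone 11 of the 17 fell.

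**Figure D2:**
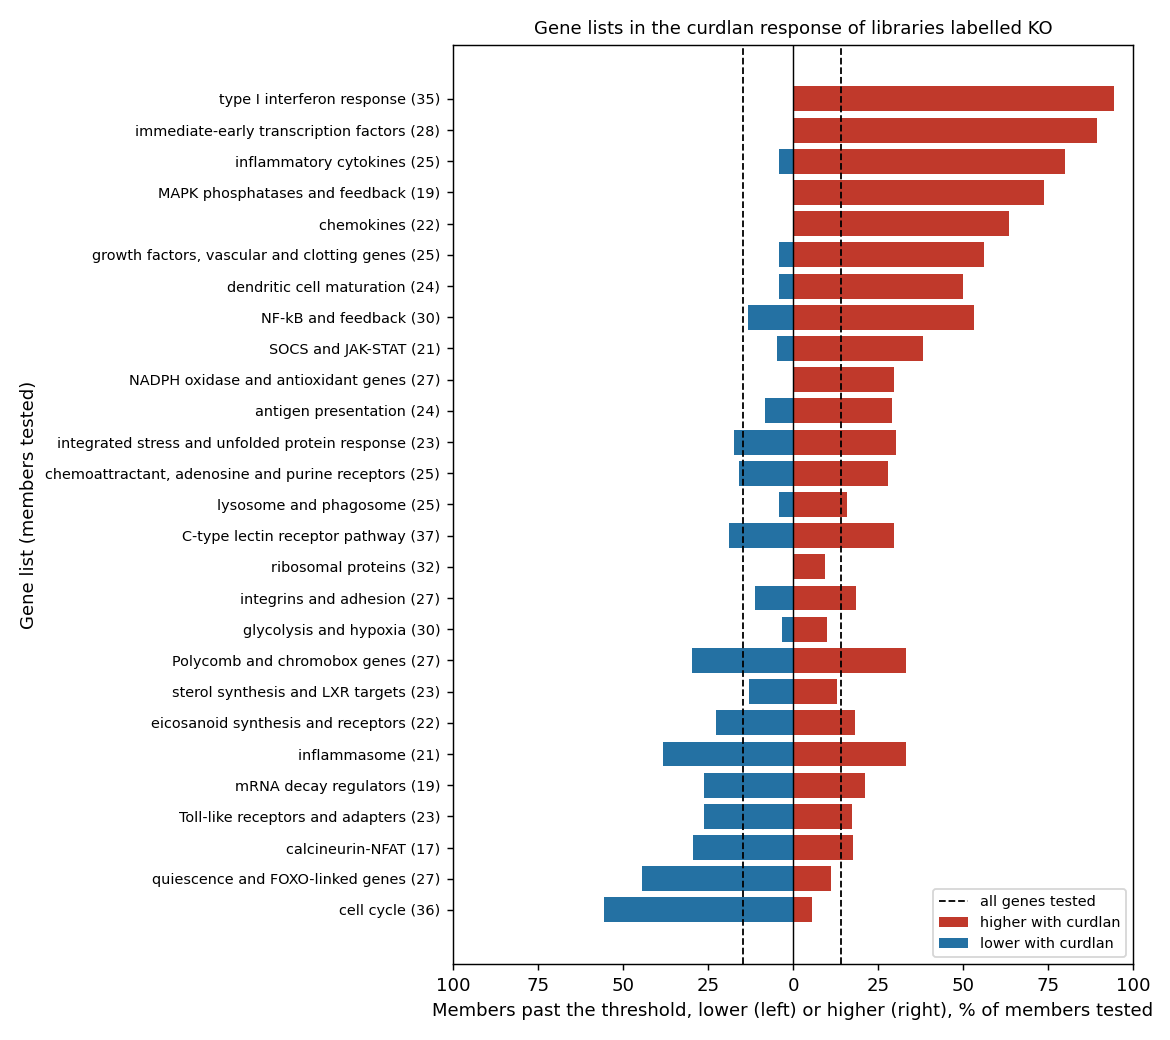
Percent of tested members of each of 27 gene lists that were higher (red, to the right) or lower (blue, to the left) with curdlan in the libraries labelled KO. Dashed lines mark the shares over all genes, 14% higher and 14.6% lower. Interferon, immediate-early and cytokine genes reach 94.3%, 89.3% and 80% higher, and cell cycle genes are mostly on the left.

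Fewer falls than rises reached 2-fold, and the largest falls were of genes with varied roles. Nlrp12 (ENSMUSG00000078817, chr7:3218784-3249740, minus strand), an NLR-family protein known to restrain inflammatory signalling in myeloid cells, measured 4.43, 4.09 and 5.95 CPM without and 1.05, 0.719 and 1.07 CPM with curdlan (log2 fold change -2.34 ± 0.23, adjusted p = 2.65e-05). The gene was also on the inflammasome list. Nr1d1 (ENSMUSG00000020889, chr11:98767932-98775333, minus strand), the circadian repressor REV-ERB alpha, measured 4.99, 4.79 and 2.12 CPM and 1.18, 0.857 and 0.699 CPM (log2 fold change -2.09 ± 0.32, adjusted p = 0.000534). In both the 3 curdlan values were near 1 CPM and below all unstimulated ones. Zfp652 (ENSMUSG00000075595, chr11:95712673-95835115, plus strand), a zinc-finger repressor, measured 60.8, 65.2 and 53.9 CPM and 23.9, 22.9 and 21.5 CPM (log2 fold change -1.40 ± 0.10, adjusted p = 3.25e-06). Its values were tight in each state. The other falls among the 15 largest included Zfp831 (-1.71), the potassium channel Kcnn3 (-1.57), the transcription factor Tfap4 (-1.55), the kinase Dyrk3 (-1.54), Dnajc28 (-1.58) and Nos1ap (-1.52), all at single-digit CPM without curdlan. Fam78a measured 12, 8.67 and 9.83 CPM and 2.94, 4.07 and 4.19 CPM (log2 fold change -1.46 ± 0.14, adjusted p = 2.75e-05). Sephs2, which makes the selenium donor for selenoproteins, measured 42.4, 33.6 and 47.2 CPM and 13.3, 12.9 and 15.7 CPM (log2 fold change -1.56 ± 0.12, adjusted p = 5.46e-06). Narf measured 49.9, 38 and 42.6 CPM and 16.2, 13.1 and 15 CPM (log2 fold change -1.56 ± 0.13, adjusted p = 1.08e-05). None of these 3 overlapped between the states.

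**Figure D3:**
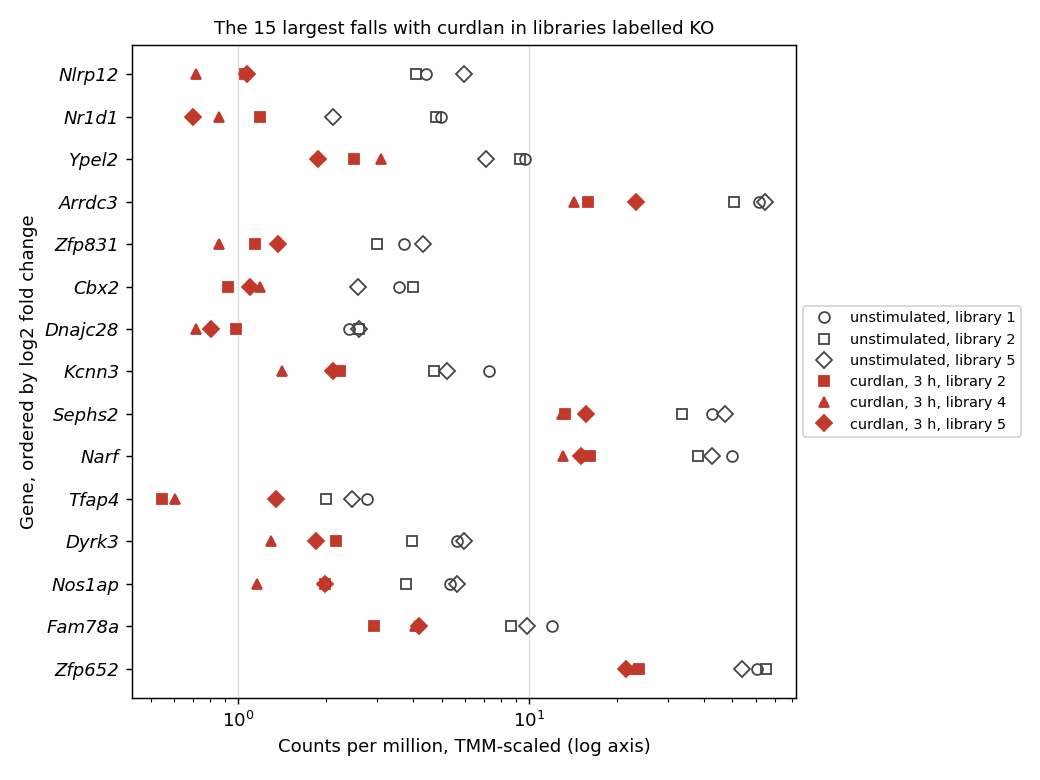
CPM on a log axis in each library labelled KO for the 15 genes with the largest falls by the naming rule, with symbols as in the plot of the rises. For every gene plotted the 3 red curdlan symbols lie to the left of the 3 grey unstimulated ones.

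Quiescence and FOXO-linked genes, which mark resting cells with low growth signalling, fell in 12 of 27 cases and rose in 3, with a median of -0.32. Arrdc3, an arrestin-domain protein, measured 61.8, 50.6 and 64.8 CPM without and 15.9, 14.2 and 23.4 CPM with curdlan (log2 fold change -1.73 ± 0.19, adjusted p = 6.04e-05). Klhl24 measured 47.6, 38.5 and 43 CPM and 21.1, 16.8 and 20.3 CPM (log2 fold change -1.15 ± 0.12, adjusted p = 3.92e-05). The transcription factor Foxo3 measured 76.4, 62 and 76.1 CPM and 39.6, 36.2 and 49.1 CPM (log2 fold change -0.78 ± 0.12, adjusted p = 0.00047). For each of them every curdlan value was below every unstimulated one. Trp53inp1 fell by 0.94, Pik3ip1, an inhibitor of phosphoinositide 3-kinase, by 0.84, and the glucose-uptake inhibitor Txnip by 0.65 on the log2 scale. The Yippee genes Ypel2 and Ypel3 fell by 1.80 and 0.62. With any 1 library left out 9 to 14 members fell, and as few as 1 rose, so the falls were the steadier side of the list. In WT 11 members fell and 3 rose.

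Polycomb and chromobox genes moved both ways, 9 of 27 higher and 8 lower. The reader subunit Cbx2 measured 3.58, 4 and 2.58 CPM without and 0.921, 1.19 and 1.1 CPM with curdlan (log2 fold change -1.66 ± 0.19, adjusted p = 7.95e-05). Kdm6b, a demethylase that removes the Polycomb mark from histone H3, moved the other way, at 164, 147 and 178 CPM and 415, 283 and 348 CPM (log2 fold change 1.10 ± 0.15, adjusted p = 0.000273). The related demethylase Kdm6a fell by 0.41 on the log2 scale and the methyltransferase Ezh1 by 0.55, while Jarid2 and Bmi1 rose by 0.57 and 0.35. By library size alone 4 rose and 13 fell.

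Regulators of mRNA decay were split too, with 4 of 19 higher and 5 lower, and the ZFP36 family, whose proteins bind AU-rich elements and bring on decay of cytokine mRNAs, moved in opposite directions. Zfp36 measured 406, 454 and 380.4 CPM without and 975, 779.5 and 902 CPM with curdlan (log2 fold change 1.10 ± 0.11, adjusted p = 2.49e-05). Zfp36l2 measured 154, 161 and 123 CPM and 64.4, 51.1 and 56.9 CPM (log2 fold change -1.34 ± 0.12, adjusted p = 1.14e-05), and Zfp36l1 163, 159 and 144 CPM and 101, 64.2 and 81.6 CPM (log2 fold change -0.92 ± 0.13, adjusted p = 0.000292). The first gene was higher in every curdlan library than in any unstimulated one, and the other two were lower. Zc3h12c, an endonuclease gene of the Regnase family, rose by 1.02. By library size alone 2 members rose and 8 fell.

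Of 36 cell cycle genes tested, 20 fell and 2 rose, with a median of -0.28 and small changes. The spindle checkpoint kinase Bub1b measured 22.4, 21.5 and 25.6 CPM without and 14.5, 11.9 and 14.1 CPM with curdlan (log2 fold change -0.78 ± 0.11, adjusted p = 0.000356). Genes of the replication helicase fell, Mcm5 by 0.66, Mcm7 by 0.46 and Mcm2 by 0.39 on the log2 scale. The mitotic kinase Aurkb measured 20.2, 16.9 and 21.8 CPM and 12.9, 12 and 15.2 CPM (log2 fold change -0.55 ± 0.10, adjusted p = 0.00191). Not every fall was of a gene that drives division, since the inhibitor Cdkn1b (p27) fell by 0.73. With any 1 library left out 15 to 19 fell, and 12 fell in a fit of the 6 libraries alone.

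Long genes were called lower more often than short ones. Split into 4 equal groups by annotated exonic length, the 13887 protein-coding genes had median log2 fold changes in KO of 0.05, -0.05, -0.06 and -0.11 from the shortest to the longest. The share called higher went from 17.0% to 12.2% and the share called lower from 11% to 23.1%. In WT the medians went the other way, from -0.10 through -0.04 and -0.01 to 0.04. The median length was 4847 bases for the 15 largest falls and 2139 bases for the 15 largest rises, against 4361 bases over protein-coding genes. The part of length in single calls was not tested.

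Of 30 glycolysis and hypoxia genes 3 rose and 1 fell, with a median of -0.0021, while 17 of the 30 rose in WT and the direct difference was negative past the threshold for 12. Pfkp, the platelet-type phosphofructokinase, rose by 0.59, from 659.8, 631 and 594 CPM to 1019, 909 and 900.4 CPM, and P4ha2, a collagen prolyl hydroxylase, by 0.84. In 21 of the 30 genes curdlan library 5 was the highest, and 5 rose without curdlan library 2. The number that fell was 0 to 3 with 1 library left out, and by library size alone 2 rose and 8 fell. The integrated stress and unfolded protein response was covered by 23 genes, with 7 rises and 4 falls. Ppp1r15a, which relieves the translational block of that response, rose by 1.03, from 221, 234 and 211 CPM to 511, 468 and 382 CPM. Ddit4, an inhibitor of mTORC1, fell, at 116, 81.8 and 126 CPM and 45.3, 38.5 and 60.5 CPM (log2 fold change -1.17 ± 0.19, adjusted p = 0.000794), and Sesn2, another such inhibitor, fell by 0.50 on the log2 scale. Without curdlan library 5 the number of rises was 4, and by library size alone 3 rose and 9 fell.

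Antioxidant and NADPH oxidase genes rose in 8 of 27 cases and none fell. The members that rose included targets of the redox factor NRF2. Srxn1, a reductase of peroxiredoxins, measured 179, 187 and 154 CPM without and 358, 349.9 and 345 CPM with curdlan (log2 fold change 1.02 ± 0.08, adjusted p = 4.53e-06), and Prdx1 1155, 1231 and 1161 CPM and 1962, 2414 and 2142 CPM (log2 fold change 0.88 ± 0.10, adjusted p = 9.58e-05). The states were tight and did not overlap. Txnrd1, thioredoxin reductase, rose by 0.65. Of 23 genes of sterol synthesis or driven by LXR, 3 rose and 3 fell (13% each, near the shares over all genes). Ch25h, which makes the oxysterol 25-hydroxycholesterol and is interferon-inducible, measured 15.5, 18.8 and 8.99 CPM and 68.1, 78.1 and 46.6 CPM (log2 fold change 2.16 ± 0.28, adjusted p = 0.000181). Without curdlan library 5 the sterol genes that rose numbered 7, and the number that fell was 0 without unstimulated library 1 and 5 without curdlan library 2. Among 25 genes of the lysosome and phagosome there were 4 rises (16%, against 14% of all genes) and 1 fall (4%). The late-endosomal GTPase Rab7 led them, at 823, 883 and 824 CPM and 1824, 1495 and 1918 CPM (log2 fold change 1.05 ± 0.10, adjusted p = 1.7e-05). By library size alone 1 of these rose and 9 fell. The 27 genes for integrins and adhesion held 5 rises (18.5%) and 3 falls (11.1%), with the alpha-V integrin Itgav at 1.24 and Itga5 at 0.53. Without curdlan library 5 the rises were 8, without curdlan library 4 the falls were 1, and by library size alone 4 rose and 12 fell. With the block by title number there were 10 rises and 11 falls. Of 32 ribosomal protein genes 3 were higher and none lower, and the number higher ran from 0 to 12 with 1 library left out. None was higher and 8 were lower by library size alone.

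Maturation genes of dendritic cells rose in 12 of 24 cases and 1 fell, with a median of 0.43. The costimulatory ligands of T cells Cd80 and Cd86 measured 117, 136 and 111 CPM and 202, 213 and 233 CPM without curdlan, and 328, 286 and 337 CPM and 491, 448 and 546 CPM with it. In both, each curdlan value stood above each unstimulated one, and the genes rose by 1.39 and 1.20. The TNF-family ligands Tnfsf15, Tnfsf4 and Tnfsf9 rose by 1.83, 1.73 and 1.51, the activation marker Cd69 by 1.95 and Cd83 by 0.65. Of 24 antigen presentation genes, 7 rose and 2 fell. The ubiquitin ligase March1, which removes MHC class II and Cd86 from the surface, measured 147, 127 and 120.2 CPM without and 69.8, 56.7 and 59.4 CPM with curdlan (log2 fold change -1.08 ± 0.10, adjusted p = 1.79e-05), with no overlap. Tap1 and Tapbp, of the class I loading complex, rose by 0.69 and 0.58. Without unstimulated library 2 the number of rises was 11, and without curdlan library 4 the number of falls was 1.

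Inflammasome genes were called in both directions, 7 of 21 higher and 8 lower. Nlrp3, the sensor, measured 559.6, 525 and 605 CPM without and 1002, 839 and 967 CPM with curdlan (log2 fold change 0.73 ± 0.10, adjusted p = 0.000263). The DNA sensor Aim2 rose by 0.70 and Casp4, the mouse caspase-11 gene, by 0.95. Falls included Naip2, at -0.77, whose reads may be shared with near-identical Naip copies, and Txnip. Without curdlan library 4 the falls numbered 5. Of 22 eicosanoid genes 4 rose (18.2%) and 5 fell (22.7%). The prostacyclin receptor Ptgir rose by 0.51, and the phospholipase Pla2g4a, which frees arachidonic acid, fell by 0.69 on the log2 scale, from 32, 23.4 and 29.6 CPM to 18.3, 14.5 and 20.1 CPM. The number of eicosanoid falls was as low as 1 with 1 library left out. Among 21 genes of JAK-STAT signalling and its SOCS-family brakes 8 rose, among them the brakes Socs1 (1.20), Cish (0.80) and Socs7 (0.84), and 5 rose without unstimulated library 5. The brake Socs2 fell (-0.40), a call lost under 6 of 15 alternatives. Socs1 measured 39.9, 48.6 and 48.1 CPM and 95.9, 107 and 111 CPM, and Cish 205, 260.0 and 220.5 CPM and 412, 381 and 403 CPM, both without overlap.

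Genes that rose more in KO than in WT included those of several surface and matrix proteins. Cd72 (ENSMUSG00000028459, chr4:43446462-43454628, minus strand), an inhibitory lectin best known from B cells, measured 8.39, 9.34 and 7.05 CPM without and 43.7, 39.6 and 35.7 CPM with curdlan in KO, against 11.4, 9.43 and 9 CPM and 11.7, 9.27 and 10.7 CPM in WT. The difference of the log2 fold changes was 2.18 ± 0.18 (adjusted p = 0.000608, edgeR with Benjamini-Hochberg adjustment). Of 7 B cell markers tested none passed in KO, or 2 lower with the block by title number, with summed levels of 40.9 to 53.8 CPM without and 33.6 to 46.7 CPM with curdlan. Dpep3 (ENSMUSG00000031898, chr8:105973513-105979429, minus strand), a membrane dipeptidase, measured 2.25, 3.97 and 5.93 CPM and 20.9, 34.9 and 50.1 CPM in KO, and 6.25, 4.2 and 3.83 CPM and 7.56, 6.76 and 8.22 CPM in WT (difference 2.46 ± 0.48, adjusted p = 0.0155). In both genes the 3 KO curdlan values stood above all other 9 libraries. Amigo3 (ENSMUSG00000032593, chr9:108053159-108055701, plus strand), an adhesion protein, gave the same order, with 11.3, 11.1 and 10.3 CPM in the KO curdlan libraries and a difference of 1.55 ± 0.25 (adjusted p = 0.00717). Other positive differences had unequal starting levels. Tnc, the matrix protein tenascin C, measured 6.36, 5.06 and 5.64 CPM and 29.6, 24.4 and 46.1 CPM in KO, and 22.2, 33.3 and 27.4 CPM and 40.1, 44.7 and 63.9 CPM in WT. Ppm1j measured 1.27, 1.3 and 1.21 CPM and 2.98, 2.88 and 4.43 CPM in KO and stayed at 12.4 to 14.6 CPM over the 6 WT libraries. Flt1, a receptor of vascular endothelial growth factor, rose in KO from 8.64, 10.4 and 6.01 CPM to 19.9, 16.8 and 13.5 CPM and stayed below the WT range of 51.2 to 81.1 CPM. Their differences were 1.71, 1.41 and 1.37. For Il10 the difference was 2.78 ± 0.58 (adjusted p = 0.0204), and it was lost without KO unstimulated 1, WT unstimulated 1 or WT curdlan 2, with an adjusted p of up to 0.07. Unstimulated WT libraries held 1.73, 1.47 and 1.31 CPM of it.

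Several genes that rose less in KO were already higher there than in WT without curdlan. Lif (ENSMUSG00000034394, chr11:4257557-4272514, plus strand), a gp130 cytokine, measured 20.5, 9.37 and 37.2 CPM and 84, 70.3 and 221 CPM in KO, and 3.61, 2.9 and 3.16 CPM and 182, 164 and 193 CPM in WT, a difference of -3.32 ± 0.66 (adjusted p = 0.0166). Gdf15 (ENSMUSG00000038508, chr8:70629393-70632456, minus strand), a stress-induced TGF-beta-family cytokine, measured 107, 99.2 and 108 CPM and 274, 230.5 and 238 CPM in KO, and 16.5, 10.7 and 14.1 CPM and 137, 117 and 143 CPM in WT (difference -2.03 ± 0.19, adjusted p = 0.000608). For both, unstimulated KO libraries lay above unstimulated WT ones, and for Gdf15 the KO curdlan values exceeded those of WT. The same held for Ccl7, with 2.07, 1.87 and 1.81 CPM and 94.2, 80.8 and 107 CPM in WT (difference -2.33 ± 0.20, adjusted p = 0.000608). Further negative differences, for Il12b (-3.37), Ptgs2 (-2.64) and Tnf (-2.16), passed as well. Adm moved in opposite directions, from 2.94, 2.18 and 2.44 CPM to 5.31, 4.71 and 3.75 CPM in WT, with curdlan levels that overlapped between genotypes (difference -2.03 ± 0.28, adjusted p = 0.0046). Ticam2 did too, with 0.65 in WT against -0.71 in KO (difference -1.36 ± 0.14, adjusted p = 0.00105). Narf fell in KO and had a value of -0.39 in WT (adjusted p = 0.0496, difference -1.17).

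**Figure D4:**
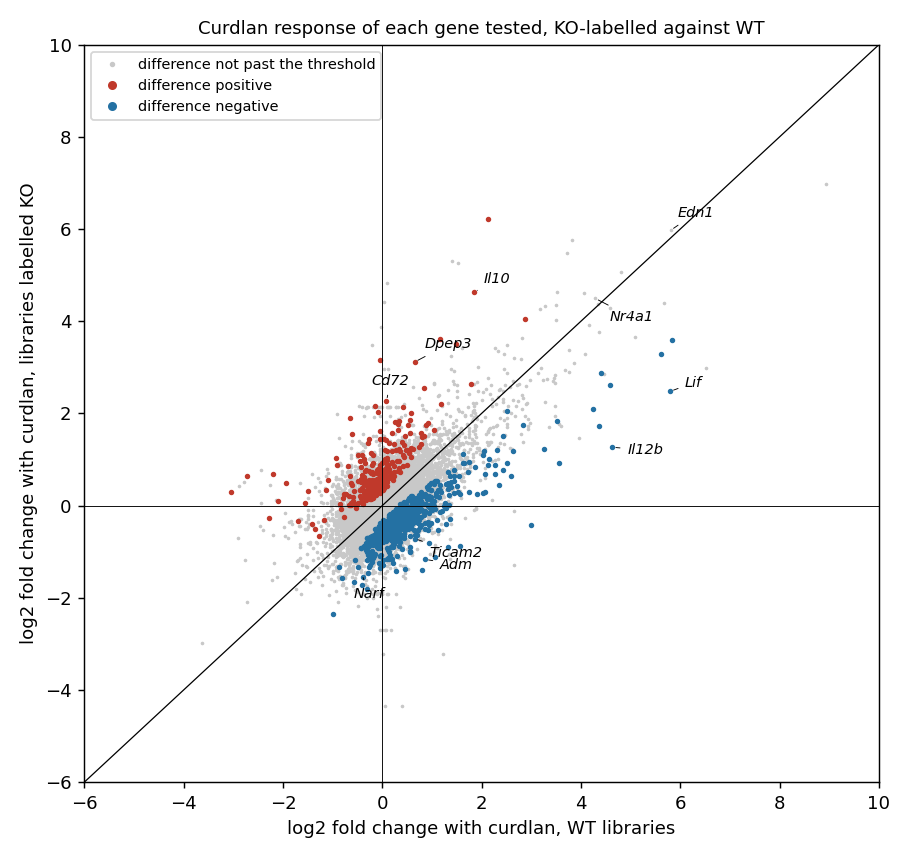
Log2 fold change with curdlan in the libraries labelled KO (vertical) against that in WT (horizontal), 1 point per gene, with the line of equal change. Red points have a positive and blue points a negative difference past the threshold. Red points such as Cd72 and Dpep3 lie above the line, and blue ones such as Il12b, Lif and Adm below it.

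**Figure D5:**
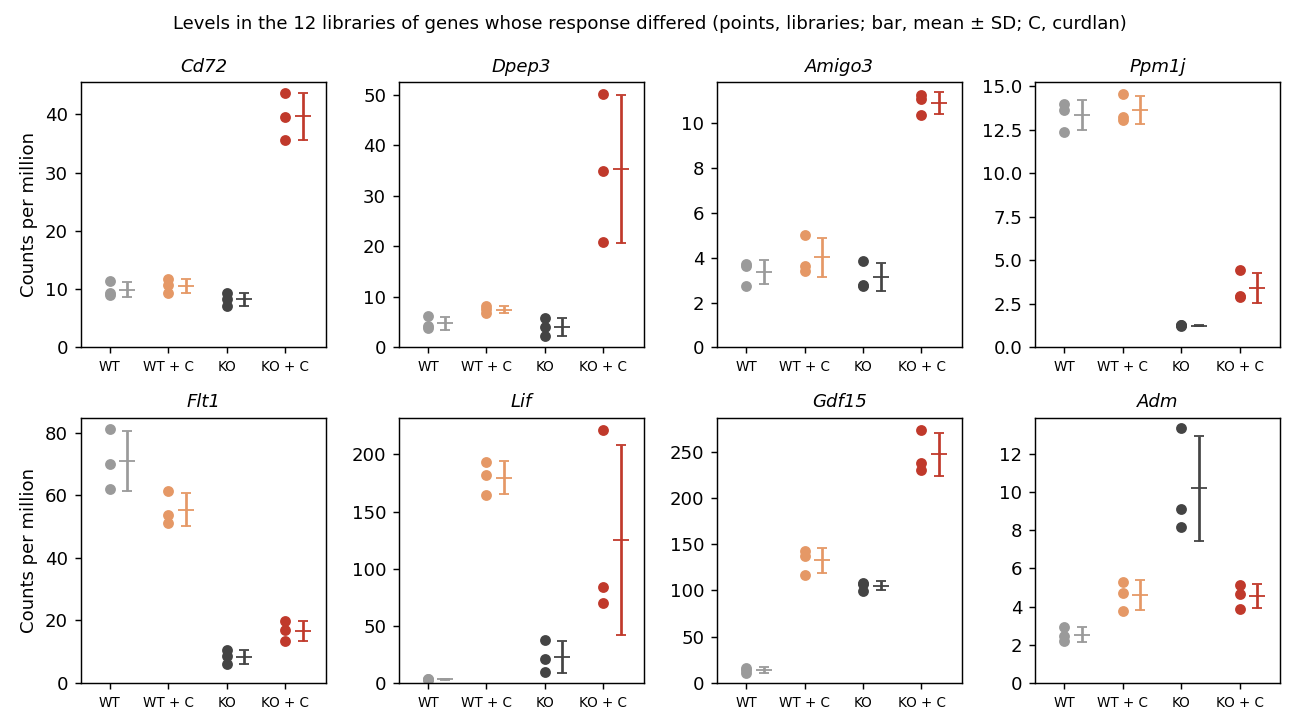
CPM in all 12 libraries (points, with mean and SD over 3 libraries) for 8 genes whose responses differed, in unstimulated WT, curdlan WT, unstimulated KO and curdlan KO. For Cd72, Dpep3 and Amigo3 the KO curdlan libraries stand alone at the top, and for Lif and Gdf15 the unstimulated KO libraries lie above the unstimulated WT ones.

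Of 436 antisense genes tested 67 rose and 20 fell, and of 262 lincRNAs 37 rose and 14 fell, against 2032 rises and 2547 falls among 13887 protein-coding genes. The largest named rise was Il1bos (ENSMUSG00000074805, chr2:129369897-129375748, plus strand), at 2.56, 2.02 and 5.62 CPM without and 13.5, 19.1 and 61.8 CPM with curdlan (log2 fold change 3.19 ± 0.54, adjusted p = 0.00105). It overlaps Il1b, which rose by 1.67, and the library kit does not mark strand, so the reads of this pair cannot be told apart. E430024P14Rik, Gm14636 and 9830144P21Rik rose by 1.71, 1.70 and 1.66. All 3 were below 13 CPM in each library labelled KO and had separate states. The same limit holds for the antisense genes as a class, whose reads cannot be told from those of overlapping genes. The shares of antisense genes and lincRNAs that rose were 15.4% and 14.1%, near the 14% over all genes, and those that fell were 4.59% and 5.34%. Of 13 lncRNAs at bidirectional promoters 1 rose and 3 fell. Of 17 mitochondrial transfer RNA genes 14 rose and none fell. The mitochondrial share of counts was highest in curdlan library 4, and its part in the result was not tested.

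Markers of the labelled cell type were present. Of 16 dendritic cell markers 6 rose and none fell, with summed levels of 14170 to 17940 CPM without and 15580 to 20030 CPM with curdlan, among them the lineage factors Zbtb46 (0.52), Irf4 (0.72) and Irf8 (0.43). Macrophage markers were counted as well, at 6707 to 7664 CPM and 7044 to 7587 CPM, with 3 of 14 higher and 1 lower. Mertk, a receptor for apoptotic cells, rose by 1.16, and Csf1r fell by 0.47 on the log2 scale. T cell markers summed to 13.1 to 20.8 CPM without and 11.9 to 19.5 CPM with curdlan. Of the 7 tested 2 rose (28.6%, against 14% of all genes), or 1 without both libraries numbered 5, and none fell. The defining genes Cd3e, Cd3g and Trac were too low to test. Mast cell and basophil markers summed to 309 to 474 CPM and 479 to 645 CPM, with the histamine-forming enzyme Hdc the 1 of 10 that rose (1.33). Of these 10, 8 were highest in the library numbered 5 in both states, as were 5 of 6 erythroid markers and 6 of 9 stromal and osteoclast markers. None of the erythroid, stromal and osteoclast markers passed, but 1 stromal or osteoclast marker was higher and 3 were lower with the block by title number. Without both libraries numbered 5 the number of cytokine genes that rose was 19.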

How the data were processed

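RNA from mouse bone-marrow-derived dendritic cells was measured by sequencing in 12 libraries, 3 per genotype label and state. Reads were aligned and counted by the authors with tools named in the submitters' processing notes, among them TopHat2 2.4.2a and featureCounts 1.4.6. The sources used here do not state the genome build, annotation or strand setting. The deposited table holds raw read counts per gene, and per the labels the library kit was one that does not mark strand. From a deposited table of the authors' own KO against WT comparison with curdlan only gene symbols were taken, none of its log2 or other values. In all, 24 other columns of per-sample values were not used.

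Counts were tested with edgeR 4.0.16 (R 4.3.3): quasi-likelihood F-test, 4 group means fitted to all 12 libraries, TMM scaling, filterByExpr by group, and Benjamini-Hochberg adjustment over 18981 genes at 0.05. Contrasts were curdlan minus unstimulated in KO and in WT, and their difference. DESeq2 1.42.0 was an alternative. On simulated counts for 18696 genes with 200 changed, the KO contrast recovered 93% of 2-fold and 100% of 4-fold changes. It made 200 calls, of which 7 were false, and the difference was called for 12 unchanged genes. The simulated libraries were independent and had the same spread trend in every group, unlike the data, so these rates do not carry over to the calls above. CPM were computed from the counts and TMM factors; levels of different genes are not compared. Library depth, 41421718 to 61217861 counts, leaves counting error small beside replicate spread, except where counts are printed and for genes at about 1 CPM or less.

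Coordinates are those of GENCODE M21 (GRCm38), joined on Ensembl identifiers, which 1393 of the tested genes lacked there. Promoter windows are RefSeq's. Genes named are the targeted genes, the 15 largest rises and falls past the threshold, without overlap and at a mean log2 CPM not under 1, the leading members of each list, the largest differences from WT, cell type markers and leading noncoding genes. Other list members named beside them, Tnip1 among them, were chosen after their values were seen. Groups, lists and the WT contrast were chosen with earlier results of these data known. WT library numbers recur in both states, and pairs of the same number had correlations of deviations of 0.395, 0.239 and 0.129. WT pairs of unlike number had -0.29 to 0.0822, all below the pairs of the same number. WT libraries of the same number thus deviated together, but the labels do not say that they share a source. The main fit used no pairing, and the replicate block by library number gives the calls with one. KO shares only numbers 2 and 5 (0.287 and 0.557), too few pairs to take as a pairing. Sample titles number the same KO libraries 1 to 3 in both states, unlike the library names, and pairs by title also deviated together (0.217, 0.246 and 0.557). Which numbering marks a shared source cannot be told, so a block by title number was added after seeing the data. Numbers of the WT curdlan libraries disagree between deposited tables, and those of the count table were used. Alternatives were other scalings, no filter, DESeq2, a replicate block, a fit of one genotype alone and each library left out. One of the gene lists is not reported here.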

Additional observations from a re-analysis of the deposited data

Results flagged for a closer look

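Genes named above were set apart here where the curdlan response in KO differed from that in WT by a direct test of the difference (edgeR with Benjamini-Hochberg adjustment, adjusted p under 0.05). Values are the difference of the log2 fold changes, KO minus WT.

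Positive differences that were kept under each alternative run for them were those of Dpep3 (2.46), Cd72 (2.18), Tnc (1.71), Amigo3 (1.55), Ppm1j (1.41), Flt1 (1.37), Rgs2 (0.92) and Prdx1 (0.76). Positive differences lost under at least 1 alternative were Il10 (2.78), Rcan1 (1.18), Klf4 (1.02), Rgs1 (0.87), Mafk (0.71) and Clec7a (0.63).

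Negative differences kept under each alternative run were Il12b (-3.37), Lif (-3.32), Ptgs2 (-2.64), Ccl7 (-2.33), Tnf (-2.16), Gdf15 (-2.03), Adm (-2.03), Tnfsf15 (-1.69), Ticam2 (-1.36), Narf (-1.17), Fam78a (-1.17), Nfkbiz (-1.12), Ccrl2 (-1.10), Tnip1 (-1.05), Nlrp3 (-0.99), Sesn2 (-0.99), Tnfsf9 (-0.92), Cd83 (-0.89), Tnfaip3 (-0.68), Syk (-0.57), Birc3 (-0.56) and Bcl3 (-0.50). Those lost under at least 1 were Nlrp12 (-1.35), Zfp831 (-1.31), Ddit4 (-1.30), Icam1 (-1.13), Cbx2 (-1.10), Isg15 (-1.08), P4ha2 (-1.03), Kdm6b (-0.92), Sephs2 (-0.76), Tlr6 (-0.59), Malt1 (-0.54) and Maff (-0.51). Among the genes listed here, Adm, Ticam2, Tnip1, Sesn2 and Bcl3 passed in both genotypes with opposite directions, though the KO call of Bcl3 was lost under at least 1 alternative. No cause of these differences was tested.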

How the results depend on the processing

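The KO calls numbered 5425, and 3142 in a fit of the 6 libraries labelled KO alone. Leaving out single KO libraries gave 3490 to 6074. Under the other alternatives run for the KO response the number stayed within 1.5 times. The WT calls, 3759, numbered 5198 in a fit of the 6 WT libraries alone, 6123 by library size alone and 2170 to 3122 with 1 WT library left out. The 989 differences numbered 2251 by DESeq2, and 366 to 2837 with 1 library left out. With library number as a replicate block, 5625 genes were called in KO, 7276 in WT and 2671 for the difference; in KO only numbers 2 and 5 recur. With a replicate block by the number in the sample titles, chosen after seeing the data, the calls were 7861, 6551 and 4487. Under it Cbl, Dusp6, Cxcl3, Ebi3, Ltb, Klf4 and, at -0.37, Vav3 passed in KO as well. More list members fell under it, among them 10 Toll-like receptor and adapter genes, 8 calcineurin and NFAT genes, 8 eicosanoid genes, 8 mRNA decay regulators, 8 chemoattractant receptors, 8 neutrophil markers, 7 stress genes, 6 sterol genes, 5 lysosome genes, 4 JAK-STAT genes, and 1 each of the interferon and MAP kinase feedback lists. With it 13 ribosomal protein genes were higher. The share of higher KO calls was 17.9% by library size alone. For WT the share was 57.6%, 46.3% with upper-quartile factors and 25.1% by library size alone. Positive differences made up 30.8% of calls, 42% with upper-quartile factors and 15.7% by library size alone. Casp8 had a KO log2 fold change of 0.18, which turned to -0.016 by library size alone. The cause of these changes was not tested. Among the genes named or ranked by the naming rule, 266 KO calls included 49 that were lost under at least 1 alternative, and 71 differences included 36. Genes counted at about 1 CPM or less rest on few counts, and 3 libraries a group in 1 lane each limit every comparison.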
